A study of Mus musculus with 18 samples.

Results

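The presence of a peritoneal tumor was compared with its absence in mouse peritoneal macrophages sorted as Tim-4low. The comparison holds 6 of the 18 RNA sequencing libraries of the series, chosen by their labels: 3 from mice that carried a tumor and received an isotype control antibody, and 3 from mice without a tumor. The tumor was MC38-LG, placed in the peritoneal cavity. MC38 is a mouse colon carcinoma line. The labels put the antibody against Tim-4, used in other groups, on day 7 after tumor challenge and the harvest on day 10, and give the isotype antibody no day of its own. Mice without a tumor were harvested on the same day and their labels name no antibody, so an effect of the tumor and one of the isotype antibody cannot be told apart. The sources used here do not give strain, sex, age or whether a library is 1 mouse or a pool. The spread behind the p-values is therefore that between these samples and may be technical. The 3 tumor-bearing libraries are called tumor libraries 1 to 3 below, and the others no-tumor libraries 1 to 3.

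Tim-4, the product of Timd4, is a receptor for phosphatidylserine, the lipid that dying cells expose, and marks long-lived resident macrophages of the body cavities. Macrophages of the cavity with little Tim-4 include cells derived from blood monocytes, which carry the chemokine receptor Ccr2 and MHC class II molecules. In tumors, macrophages are known to take up programs of arginine breakdown, hypoxia, matrix remodelling and immune checkpoint ligands.

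In bulk RNA of sorted cells, fewer cells of a type and less RNA per cell cannot be told apart. Levels are given in CPM, counts scaled to the library's total after TMM normalization, and differences as log2 fold changes of tumor over no tumor ± standard error. A gene is called changed at an adjusted p under 0.05 in edgeR's quasi-likelihood test, fitted to all 18 libraries with Benjamini-Hochberg adjustment over 16609 genes. Library totals lay between 25533700 and 33898910 estimated counts. Of the tested genes 8273 were called, or 49.8%. The 4185 higher with the tumor made up 25.2% and the 4088 lower made up 24.6%. Over 2-fold higher stood 1385 called genes (8.34%) and over 2-fold lower 1452 (8.74%), and the median log2 fold change over all tested genes was -0.022. The first principal component, with 70.8% of the variance, separated tumor from no-tumor libraries. The second, with 14.6%, set tumor library 3 and no-tumor library 1 apart from the other 2 libraries of their groups. Timd4, the gene of the sort, stood at 14.5, 11 and 75.4 CPM with the tumor and at 109, 9.52 and 9.13 CPM without it, and did not pass the test (-0.33 ± 0.79, adjusted p = 0.752). Without no-tumor library 1 it was higher with the tumor (1.86, adjusted p = 0.0254). Its high values were in the same 2 libraries. Within their groups these also had the highest summed markers of B cells, T and NK cells, neutrophils, eosinophils and mast cells. This did not hold for every cell type: plasma cell markers were highest in tumor library 1 and no-tumor library 3 (55.8 and 162 CPM). In tumor library 3 the mast cell sum was mostly Hdc. Of genes of large resident macrophages, Gata6 (69.7 and 55.1 CPM) and Adgre1 (1421 and 776 CPM) were also highest of their groups in these 2 libraries. Fcna was highest in tumor library 3 but lowest in no-tumor library 1 (295 and 567 CPM). Marker levels are described further on. The part of these 2 libraries in the results was not tested. Values without 1 or both of them are given beside most genes whose call or size in Tim-4low cells changed.

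**Figure D1:**
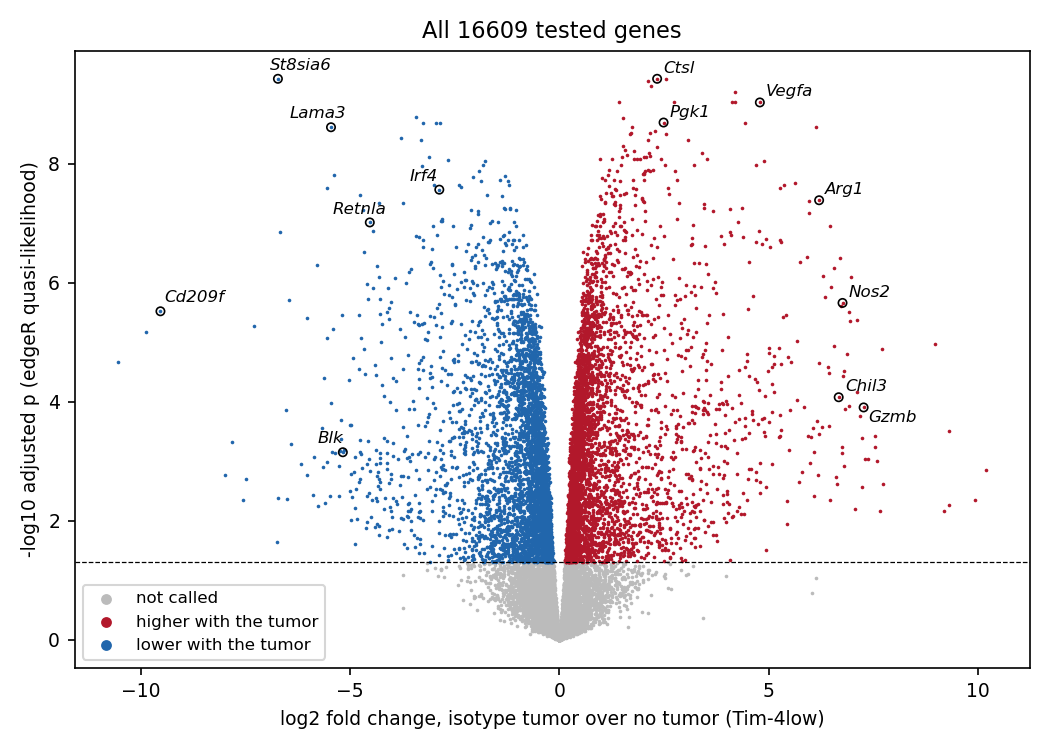
Each point is 1 of 16609 genes tested in Tim-4low cells, with the log2 fold change of tumor over no tumor on the x axis and the -log10 of edgeR's adjusted p on the y axis. Genes called higher (red) and lower (blue) lie above the dashed line at an adjusted p of 0.05, and circles mark genes named in the text, among them Arg1 at 6.21 and St8sia6 at -6.72.

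Genes that take up and break down arginine were among the strongest increases. Arg1 (ENSMUSG00000019987, chromosome 10, 24915221 to 24927484, mm10) encodes arginase 1, which splits arginine into ornithine and urea. It stood at 7414, 8428 and 7585 CPM in tumor libraries 1 to 3 and at 199, 77.5 and 40.6 CPM in no-tumor libraries 1 to 3. Every tumor library lay far above every no-tumor library, and the fitted difference was 74-fold (6.21 ± 0.43, adjusted p = 4.07e-08). Without no-tumor library 1, the highest of its group, the log2 fold change was 7.06. Nos2 (ENSMUSG00000020826, chromosome 11, 78920787 to 78960254), the inducible nitric oxide synthase that uses the same substrate, rose as well, from 0.837, 0.845 and 0.138 to 49.3, 87.6 and 55.6 CPM (6.77 ± 0.71, adjusted p = 2.17e-06). The 2 enzymes are often taken as markers of opposite macrophage states, and here both were higher in all 3 tumor libraries than in any no-tumor library. Slc7a2, a transporter that brings arginine into the cell, stood at 994, 1148 and 1096 against 109, 118 and 77.6 CPM, a 10.6-fold increase (3.41 ± 0.19, adjusted p = 6.41e-09). Odc1, which turns ornithine into the polyamine putrescine, rose 2.73-fold (1.45 ± 0.10, adjusted p = 4.94e-08). Amd1, which supplies the aminopropyl groups of the larger polyamines, fell (-0.49 ± 0.10, adjusted p = 0.00101). The mitochondrial arginase gene Arg2 stayed low, at 0.888, 1.73 and 3.9 against 0.174, 0.125 and 0.221 CPM, and rose by 3.61 ± 0.67 (adjusted p = 0.000363), or 2.88 without tumor library 3. Of 16 tested genes of arginine and polyamine metabolism, 10 rose and 3 fell (Amd1, Slc7a1 and Sms), with a median of 0.43. Without no-tumor library 1 the number that fell was 1, and the calls of Slc7a1 and Sms were lost (Slc7a1 also without tumor library 3 and Sms also without tumor library 2).

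**Figure D2:**
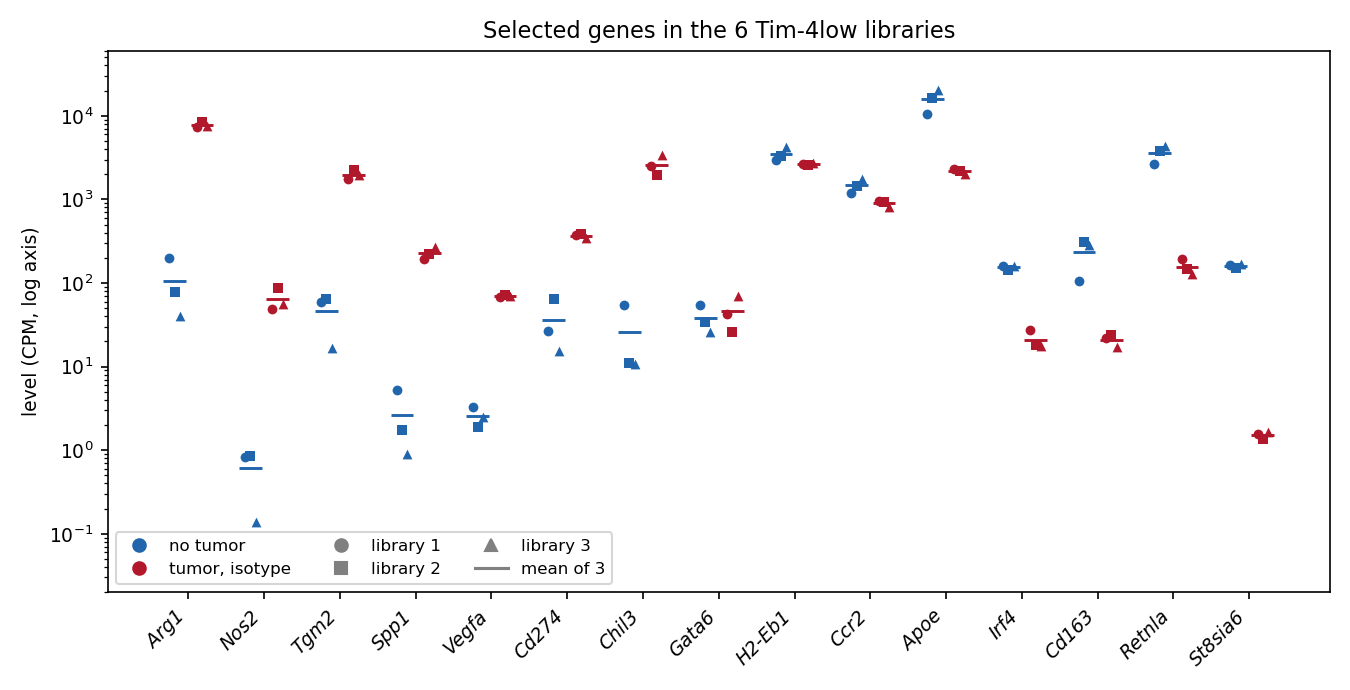
Level of key genes in the 6 Tim-4low libraries, in CPM on a log axis. Each point is 1 library, red for tumor and blue for no tumor, its shape gives the library number, and the short lines mark the group means. Arg1, Nos2, Vegfa and Spp1 separate the groups without overlap, while those of Gata6 overlap.

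The hypoxia and glycolysis programs rose together. Under low oxygen the factor HIF-1 builds up and binds the motifs ACGTG and GCGTG, present in promoters of genes for glucose breakdown, vessel growth and mitochondrial removal. Of 20 hypoxia response genes 17 rose and 0 fell, with a median log2 fold change of 1.44. Of 20 genes of glycolysis and glucose or lactate transport, 20 rose, with a median of 1.68, 15 of them by over 2-fold. The share of all tested genes called higher was 25.2%. Without tumor library 3 and no-tumor library 1, 16 and 18 of these genes rose. Adm (-1.69 ± 0.69, adjusted p = 0.0523), Ddit4 (-1.05 ± 0.55, adjusted p = 0.124) and Kdm3a, the other 3 hypoxia genes, did not pass the test. Adm was called lower without no-tumor library 2 or 3 (-2.17 and -1.96, adjusted p = 0.00824 and 0.0413) and with DESeq2, and Ddit4 without tumor library 3 (-1.65, adjusted p = 0.0372).

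The 250 bases upstream of a RefSeq start of 5 of these genes are shown. The 5 genes moved together and each window shown holds a match to ACGTG, the first of these motifs. Where a gene has several listed starts, the one with the most matches was taken. Of the 2 listed starts of Ldha, only 1 has a match, and that one is shown. Sequences are from RefSeq on GRCm38.p6, 5′ to 3′ along the gene, with matches to ACGTG or its reverse complement CACGT in capitals. Where both overlap they form CACGTG, the E-box that MYC and other factors also bind.
Pgk1, chrX:106186850-106187099, plus strand: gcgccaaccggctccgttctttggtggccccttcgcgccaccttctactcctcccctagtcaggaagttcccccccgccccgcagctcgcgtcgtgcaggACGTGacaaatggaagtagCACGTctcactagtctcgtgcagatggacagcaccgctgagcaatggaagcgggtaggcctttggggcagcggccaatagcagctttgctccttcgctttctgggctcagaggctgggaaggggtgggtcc
Ldha, chr7:46845554-46845803, plus strand: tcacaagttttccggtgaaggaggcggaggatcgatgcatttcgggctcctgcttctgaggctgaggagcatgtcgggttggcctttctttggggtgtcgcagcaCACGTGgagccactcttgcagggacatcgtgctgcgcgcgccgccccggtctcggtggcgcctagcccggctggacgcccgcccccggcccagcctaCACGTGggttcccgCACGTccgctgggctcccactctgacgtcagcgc
Bnip3, chr7:138909507-138909756, minus strand: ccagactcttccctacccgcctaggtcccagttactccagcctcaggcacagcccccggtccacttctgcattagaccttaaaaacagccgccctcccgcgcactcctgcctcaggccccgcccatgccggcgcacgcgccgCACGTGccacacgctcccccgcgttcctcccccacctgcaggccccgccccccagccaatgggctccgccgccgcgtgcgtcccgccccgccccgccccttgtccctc
Hk2, chr6:82774455-82774704, minus strand: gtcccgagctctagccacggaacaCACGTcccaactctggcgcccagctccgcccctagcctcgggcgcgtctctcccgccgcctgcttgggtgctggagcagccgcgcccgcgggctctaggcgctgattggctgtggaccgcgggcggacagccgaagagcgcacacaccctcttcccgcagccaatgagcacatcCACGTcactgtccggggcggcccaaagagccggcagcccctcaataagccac
Egln3, chr12:54203875-54204124, minus strand: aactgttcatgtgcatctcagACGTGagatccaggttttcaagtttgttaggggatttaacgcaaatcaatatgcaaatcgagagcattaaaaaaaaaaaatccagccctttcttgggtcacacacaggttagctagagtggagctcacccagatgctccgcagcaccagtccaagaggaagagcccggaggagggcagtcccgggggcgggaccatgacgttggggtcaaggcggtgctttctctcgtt
The window shown for Ldha holds 5 matches in all, 4 of them in 2 copies of CACGTG, and that of Bnip3 holds 2 in 1 such copy. Pgk1 and Hk2 have 2 separate matches each and Egln3 has 1. Of 17 hypoxia genes with an entry in the promoter table, 13 (76.5%) had the motif in at least 1 such window, and of 20 glycolysis genes 11 (55.0%) did. Among all 10678 tested genes with an entry the share was 24.5%, and among all 27025 genes with a listed promoter 18.5%. The hypoxia list was written from general knowledge of genes that respond to low oxygen. Its high share can follow from that choice alone and says nothing about these cells. A match is a description of these letters and no measured binding site, and the part of HIF-1 was not tested.

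Vegfa (ENSMUSG00000023951, chromosome 17, 46016993 to 46032369), the vessel growth factor, rose the most of these genes, from 3.28, 1.88 and 2.48 to 68.3, 72.1 and 70.6 CPM, a 27.7-fold difference (4.79 ± 0.22, adjusted p = 9.23e-10). Every tumor library lay far above every no-tumor library. Bnip3, a receptor for mitochondrial removal, stood at 72.8, 91 and 80.5 against 10.0, 9.71 and 9.32 CPM (3.07 ± 0.17, adjusted p = 3.94e-09). Hilpda, which slows the breakdown of stored lipid, rose by 3.23 ± 0.20, and Egln3, an oxygen sensor that marks HIF-1 for destruction, by 3.15 ± 0.40 (highest adjusted p 1.17e-05), Egln3 by 3.75 without no-tumor library 1. Hif1a, the oxygen-regulated subunit of HIF-1, rose 2.71-fold in its transcript, from 167, 179 and 206 to 533, 516 and 448 CPM (adjusted p = 6.09e-08).

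Along glycolysis the increases reached from entry to exit of the pathway. The glucose transporter gene Slc2a1 rose 7.24-fold, from 40.0, 26 and 31.9 to 213, 261 and 235 CPM (2.86 ± 0.27, adjusted p = 8.33e-07). Hk2, the first enzyme, rose by 1.78 ± 0.10, Pfkl, a subunit of the committed step, by 1.53 ± 0.07, and Aldoa, which splits the sugar, by 2.28 ± 0.12. Pgk1 stood at 346, 409.9 and 397 against 63.6, 71.3 and 70.2 CPM (2.49 ± 0.12). Ldha, which makes lactate, rose by 1.58 ± 0.09, and the lactate exporter gene Slc16a3 by 2.53 ± 0.15 (highest adjusted p of these 6 genes 1.06e-08). Pdk1, the kinase that keeps pyruvate from the mitochondrion, rose 2.72-fold (1.45 ± 0.10, adjusted p = 5.4e-08).

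Nuclear genes of the respiratory chain rose at the same time by smaller amounts. Of 35 tested, 31 rose and 1, Ndufa4, fell, with a median of 0.45, a log2 fold change over 1 in only 1. Cox7b of complex IV stood at 84.9, 94.6 and 91.8 against 46.2, 51.6 and 54.6 CPM (0.83 ± 0.08, adjusted p = 7e-07), and Ndufs3 of complex I rose by 0.73 ± 0.06 (adjusted p = 4.03e-07). Of the 13 transcripts of the mitochondrial genome, 6 were called higher, a count that lay between 2 and 10 when single libraries were left out. None fell, and the median was 0.3. The called share of 46.2% was near the 49.8% of all tested genes called either way, where 25.2% were called higher.

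Genes that restrain T cells mostly rose. Cd274 (ENSMUSG00000016496, chromosome 19, 29367455 to 29388095), which encodes the PD-1 ligand PD-L1, stood at 376, 381 and 344 CPM with the tumor and at 27, 64.5 and 15.4 CPM without it. All tumor libraries lay above all no-tumor libraries, by 10.3-fold in the fit (3.36 ± 0.67, adjusted p = 0.000654). Without no-tumor library 2, the highest of its group, the log2 fold change was 4.12. Pdcd1lg2, which encodes the second PD-1 ligand PD-L2, rose from 4.08, 0.971 and 0.358 to 18.3, 19.8 and 11.3 CPM (3.23 ± 0.56, adjusted p = 0.000224, and 4.66 without no-tumor library 1). Havcr2, which encodes Tim-3, a relative of Tim-4 that restrains T cells and is also found on myeloid cells, rose from 0.942, 0.47 and 0.276 to 12.1, 17.5 and 18.1 CPM (4.85 ± 0.40, adjusted p = 2.23e-07). The collagen receptor gene Lair1 rose 11.9-fold (3.57 ± 0.40, adjusted p = 3.46e-06). Ptgs2, whose product COX-2 starts prostaglandin synthesis, rose from 0.767, 1.25 and 2.32 to 18.9, 14.8 and 17.3 CPM (3.53 ± 0.40, adjusted p = 4.7e-06). Entpd1, which encodes the ATP-degrading CD39, and Lgals9, which encodes galectin-9, rose by 1.00 ± 0.11 and 0.85 ± 0.07 (highest adjusted p 3.63e-06).

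Some costimulatory ligand genes fell and 1 rose. Icosl, the ligand of ICOS, fell from 30.3, 43.2 and 56 to 14.1, 14 and 16.1 CPM (-1.55 ± 0.17, adjusted p = 4.03e-06). Cd80 and Cd86, the ligands of CD28 and CTLA-4, fell by -0.88 ± 0.11 and -0.78 ± 0.24 (highest adjusted p 0.0136), the call of Cd86 being lost without tumor library 2 or no-tumor library 2 or 3 (adjusted p up to 0.0757). Tnfsf9, which encodes the ligand of 4-1BB, rose by 1.37 ± 0.25 (adjusted p = 0.000365). Il10, the suppressive cytokine gene, was under 1 CPM in all 6 libraries and did not pass the test (-0.46 ± 0.66, adjusted p = 0.589). Of 23 tested checkpoint and suppressive genes 13 rose and 4 fell (Icosl, Cd80, Cd86 and Vsir), with a median of 0.85, and the number that fell was 2 without tumor library 2. The call of Vsir was also lost without tumor library 3 or no-tumor library 1 (adjusted p up to 0.0756).

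Matrix genes and the proteases that remodel matrix rose in most cases. Of 21 tested, 17 rose and 3 fell (Mmp9, Timp2 and Fn1), with a median of 1.86. The call of Fn1 was lost without tumor library 2 or 3 or no-tumor library 1 or 2 (adjusted p up to 0.163). Spp1 (ENSMUSG00000029304, chromosome 5, 104435118 to 104441050), which encodes the secreted matrix protein osteopontin, stood at 196, 224 and 271 against 5.27, 1.72 and 0.91 CPM, 89.5-fold higher (6.48 ± 0.64, adjusted p = 1.19e-06). No-tumor library 1 was the highest of its group, and without it the log2 fold change was 7.47. The proteoglycan gene Vcan rose by 5.04 ± 0.43 (5.69 without no-tumor library 1), and Mmp14, a membrane-bound collagen protease, by 4.37 ± 0.32 (highest adjusted p 2.48e-07). Tgm2, a transglutaminase that links proteins of the matrix, rose from 58.7, 63.8 and 16.7 to 1738, 2229.6 and 1969.6 CPM (5.42 ± 0.60, adjusted p = 3.43e-06). The protease inhibitor gene Timp2 fell from 821, 969.8 and 902 to 439, 381 and 413 CPM (-1.13 ± 0.09, adjusted p = 2.22e-07), and the gelatinase gene Mmp9 fell from 163, 138 and 217 to 9.42, 11.5 and 45.3 CPM (-2.97 ± 0.61, adjusted p = 0.000848), or by -4.05 without tumor library 3.

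Inflammatory cytokine transcripts rose in part. Il1a, a member of the interleukin-1 family, rose from 2.09, 1.75 and 3.09 to 24.8, 19.7 and 21.1 CPM (3.23 ± 0.32, adjusted p = 1.14e-06). Il1b stood at 53.8, 72 and 164 against 8.96, 5.42 and 31.7 CPM (2.64 ± 0.67, adjusted p = 0.00418), and the third library was the highest of each group. Its log2 fold change was 2.02 without tumor library 3, 3.76 without no-tumor library 3, and 1.77 (adjusted p = 0.0718) without tumor library 3 and no-tumor library 1. Osm, which encodes oncostatin M, a cytokine of the interleukin-6 family, rose by 2.39 ± 0.53 (adjusted p = 0.00144, and 3.24 without no-tumor library 3). Il27, a subunit of a cytokine that shapes T cell responses, rose by 2.23 ± 0.62 (adjusted p = 0.00732), or 3.40 without no-tumor library 2, and was not called without the 2 libraries that stood apart (adjusted p = 0.0613). Tnf did not pass (0.94 ± 0.45, adjusted p = 0.0981), and was called without no-tumor library 3 (1.31, adjusted p = 0.05). Of 14 tested cytokine and inflammasome genes 9 rose and 0 fell, and 9 became 4 without those 2 libraries.

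Chemokine genes split. The monocyte-attracting Ccl2, Ccl7 and Ccl12, ligands of Ccr2, all rose: Ccl12 stood at 8.12, 11.7 and 8.7 against 0.0698, 0.0626 and 0.165 CPM (6.48 ± 0.50, adjusted p = 1.11e-07, and 7.09 without no-tumor library 3). Ccl2 stood at 63.8, 87.1 and 81 against 4.26, 7.61 and 18.7 CPM (2.91 ± 0.55, adjusted p = 0.000467, and 3.71 without no-tumor library 3), with no overlap between the groups. Ccl8 rose by 5.67 ± 0.70 (adjusted p = 9.44e-06), with 6.49 and 5.03 without no-tumor libraries 2 and 3. Ccl6, an abundant macrophage chemokine, rose 2.03-fold, from 2720.3, 2808 and 2897 to 5627, 5452 and 6062 CPM (1.02 ± 0.11, adjusted p = 2.66e-06). Cxcl12, which binds Cxcr4 and guides many leukocytes, fell from 21, 14.5 and 18.8 to 0.571, 0.693 and 0.831 CPM (-4.69 ± 0.34, adjusted p = 5.88e-08). Cxcl13, the B cell attractant made by cavity macrophages, fell from 244, 237 and 233 to 17.3, 6.99 and 34.1 CPM (-3.61 ± 0.47, adjusted p = 1.6e-05, and -4.29 without tumor library 3). Cxcl9, the T cell attractant induced by interferon-gamma, did not pass the test at 11.7, 13.5 and 11.8 against 1.19, 22 and 2.92 CPM (adjusted p = 0.69), with the highest value in no-tumor library 2. In all 13 of 22 tested chemokine genes rose and 4 fell.

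Nearly all genes that prepare and show peptides on MHC class I rose. Of 24 tested, 23 rose and 0 fell, with a median log2 fold change of 0.99, and 17 rose without tumor library 3 and no-tumor library 1. B2m, the shared light chain, stood at 3045, 2977 and 3290.1 against 1486, 1792 and 1366 CPM (1.00 ± 0.12, adjusted p = 5.49e-06). The heavy chain gene H2-K1 rose by 0.97 ± 0.16, the peptide-trimming enzyme gene Erap1 by 0.88 ± 0.10 and the proteasome activator gene Psme1 by 1.02 ± 0.18 (highest adjusted p 0.000272). Class I heavy chains are near-identical copies, so reads could be split between them and single H2 values are uncertain.

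Interferon response genes rose in about the same direction with more spread. Of 29 type I interferon genes 16 rose and 0 fell. The sialic acid receptor gene Siglec1 rose from 55.6, 107 and 49.5 to 568, 605 and 407 CPM (2.90 ± 0.38, adjusted p = 1.69e-05), Oasl1 by 2.35 ± 0.22 (adjusted p = 7.95e-07) and the antiviral Bst2 by 1.22 ± 0.14 (adjusted p = 3.8e-06). The classical targets Ifit1, Mx1 and Usp18 did not pass, with Ifit1 at 10.2, 11.5 and 12.7 against 4.08, 12.1 and 5.02 CPM (adjusted p = 0.191). No-tumor library 2 stood at the level of the tumor libraries for Ifit1, and above them for Cxcl9. Without it Ifit1 and Usp18 were called higher (1.34 and 0.97, adjusted p = 0.0191 and 0.0256). Of 23 interferon-gamma response genes 10 rose, among them the GTPase gene Gbp2, at 878, 1061 and 1164 against 99.8, 332 and 76.8 CPM (2.61 ± 0.66, adjusted p = 0.00396), and the receptor chain gene Il12rb1 (3.75 ± 0.62, adjusted p = 0.000131). Without no-tumor library 2, Gbp2 stood at 3.56 and Il12rb1 at 4.98, and 21 of the 23 genes rose. Without no-tumor library 3 the count was 5. With all libraries 0 of the 23 fell and 43.5% were called, where 25.2% of all tested genes were called higher and 49.8% either way.

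MHC class II genes did not rise as a group. H2-Eb1, a class II chain, stood at 2639, 2570.3 and 2709.9 CPM with the tumor and 2992, 3329 and 4205 CPM without it. The 3 tumor libraries lay below the 3 no-tumor libraries, yet the difference did not pass the test (-0.41 ± 0.41, adjusted p = 0.426). With the model fitted to the 6 compared libraries it passed (adjusted p = 0.0466). The invariant chain gene Cd74 (-0.14 ± 0.41, adjusted p = 0.798) and the class II transactivator gene Ciita (0.20 ± 0.59, adjusted p = 0.796) did not pass either. Of 14 class II presentation genes 3 rose: the lysosomal reductase gene Ifi30 (1.98 ± 0.14) and the protease genes Lgmn (1.76 ± 0.11) and Ctss (1.34 ± 0.10), which act in the lysosome (highest adjusted p 4.94e-08). The 2 that fell, H2-DMb2 (-1.93 ± 0.37) and H2-Ob (-1.60 ± 0.35), encode chains that load peptide or regulate loading (highest adjusted p 0.00128). Without tumor library 3, 4 fell. With all libraries 35.7% of the 14 genes were called, against 49.8% of all tested genes.

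**Figure D3:**
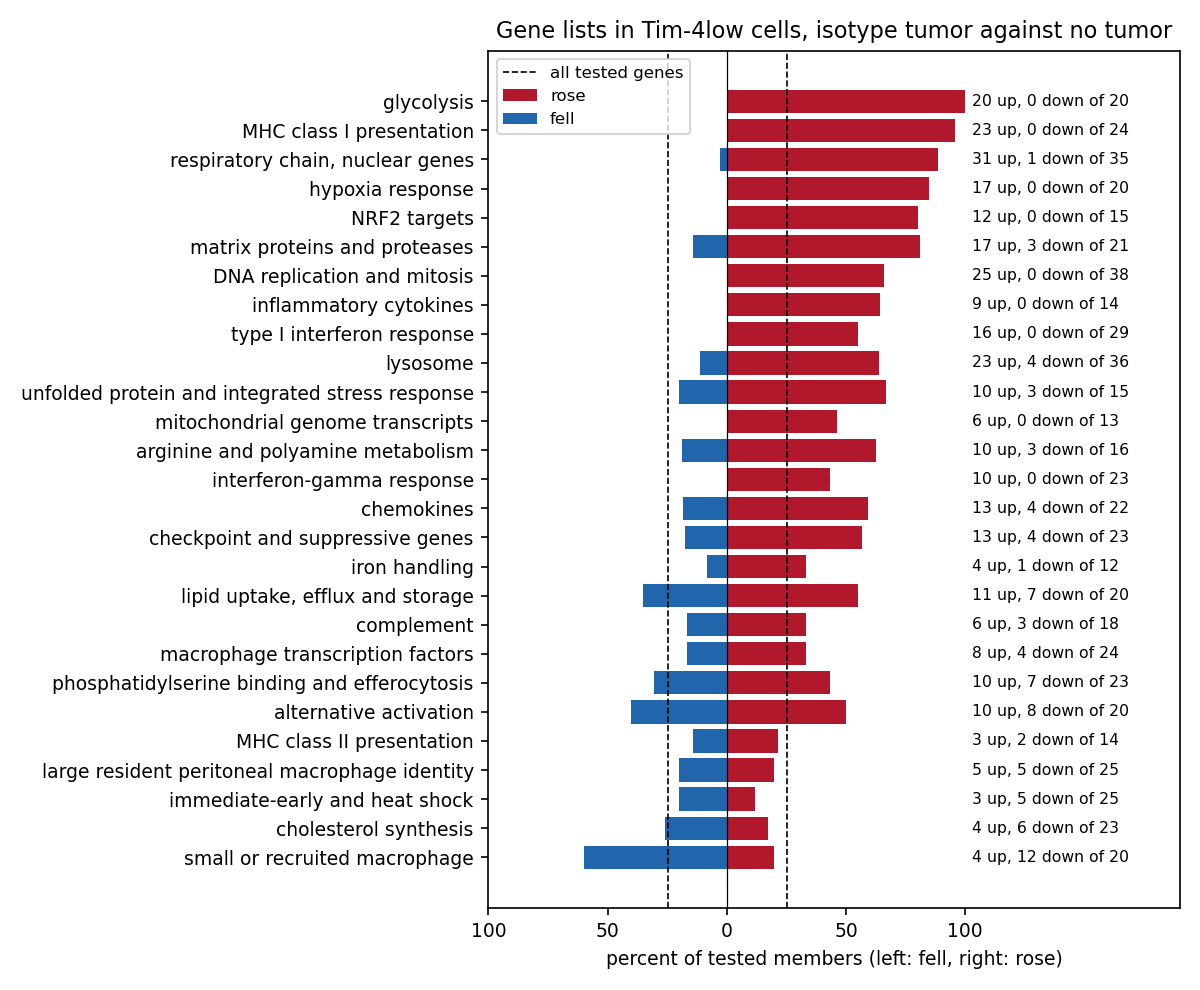
Share of the tested members of each gene list that rose (red, to the right) or fell (blue, to the left) with the tumor in Tim-4low cells, in percent, with the counts written at the right. Dashed lines mark the shares over all tested genes, 25.2% higher and 24.6% lower. Glycolysis has 20 of 20 members higher and small or recruited macrophage genes 12 of 20 lower.

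Genes that mark small or recruited cavity macrophages fell more often than they rose. Of 20 tested 12 fell and 4 rose, with a median of -1.28. Retnla (ENSMUSG00000061100, chromosome 16, 48842551 to 48844461), which encodes the secreted protein RELM-alpha, stood at 192, 147 and 129 CPM with the tumor and at 2686, 3765 and 4362 CPM without it. Every tumor library lay far below every no-tumor library, and the fitted difference was 23.1-fold (-4.53 ± 0.35, adjusted p = 9.61e-08). The Fc receptor-like gene Fcrls fell from 572, 639 and 896 to 41.8, 29 and 26.2 CPM (-4.44 ± 0.44, adjusted p = 1.19e-06). Irf4, a transcription factor of interleukin-4 responses and of some dendritic cells, fell from 161, 142 and 158 to 27.7, 18 and 17.4 CPM (-2.87 ± 0.19, adjusted p = 2.7e-08). Cd163, the scavenger receptor for haemoglobin complexes, fell from 105, 311 and 284 to 22.2, 23.8 and 17 CPM (-3.48 ± 0.57, adjusted p = 0.000129). The lectin genes Mgl2 and Clec10a fell by -1.78 ± 0.47 and -1.46 ± 0.17 (highest adjusted p 0.00518), and Cd209a, a lectin gene of a cluster of near-identical copies, by -4.66 ± 0.59 (adjusted p = 1.3e-05, and -5.52 without tumor library 3).

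Lyve1, a hyaluronan receptor gene, and Folr2, a folate receptor gene, mark macrophages around vessels. Lyve1 stood at 37.4, 40.2 and 27.4 against 51.4, 139 and 114 CPM (-1.54 ± 0.53, adjusted p = 0.0249) and Folr2 at 90.7, 87.4 and 64.5 against 133, 206 and 195 CPM (-1.14 ± 0.43, adjusted p = 0.0379). In both genes the groups did not overlap, and both calls were lost without tumor library 1 or 3 or without no-tumor library 2 or 3 (Folr2 also without tumor library 2), with adjusted p up to 0.115. Ccr2 stood at 959.7, 918 and 811 against 1196, 1444 and 1766 CPM, and the groups did not overlap, but the difference did not pass the test (-0.71 ± 0.35, adjusted p = 0.0999). With the model fitted to the 6 compared libraries it did (adjusted p = 0.00833). Cx3cr1, the fractalkine receptor gene, did not pass (-0.23 ± 0.61, adjusted p = 0.773), and without no-tumor library 1 its direction turned (1.34, adjusted p = 0.0215).

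Ly6c2, the classical monocyte marker, was among those that rose and stood at 74.6, 102 and 97.1 against 5.16, 17.8 and 0.496 CPM (3.55 ± 0.73, adjusted p = 0.000852), or 5.08 without no-tumor library 2. Chil3 (ENSMUSG00000040809, chromosome 3, 106147554 to 106167564), which encodes the chitinase-like protein Ym1, made by monocytes and by macrophages under interleukin-4, stood at 2509, 1944 and 3378 against 55, 10.9 and 10.8 CPM. The increase was 102-fold (6.68 ± 1.04, adjusted p = 8.35e-05), and without no-tumor library 1 the log2 fold change was 7.92. The gene has a near-identical copy, Chil4, so its count is uncertain. In the list of alternative activation, genes induced by interleukin-4, Chil3, Arg1 and the receptor gene Il4ra (1.83 ± 0.12, adjusted p = 2.6e-08) rose while Retnla, Mgl2 and Clec10a fell. In all 10 of 20 rose and 8 fell, and Mrc1, which encodes the mannose receptor, did not pass (-0.53 ± 0.42, adjusted p = 0.319).

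Identity genes of large resident macrophages mostly did not pass in these cells. Gata6, their lineage transcription factor, stood at 42.7, 26.1 and 69.7 against 55.1, 33.9 and 25.9 CPM with overlapping groups (0.27 ± 0.45, adjusted p = 0.643). Adgre1, which encodes F4/80, did not pass (0.69 ± 0.32, adjusted p = 0.0908). Of 25 genes 5 rose and 5 fell, a share of 40.0% called against 49.8% of all genes. Fcna, a secreted lectin of the complement system, fell from 567, 1025 and 931 to 192, 146 and 295 CPM (3.99-fold lower, adjusted p = 9.02e-05), and Bhlhe40, a transcription factor that lets these cells divide, rose by 1.45 ± 0.11 (adjusted p = 1.11e-07). Among 24 macrophage transcription factors 8 rose and 4 fell, and the other 12 were not called, again near the share of all genes. Irf8 rose from 74.8, 117 and 92.7 to 317, 364 and 332 CPM (1.83 ± 0.24, adjusted p = 1.89e-05). Id3 and Batf3 fell by -3.37 ± 0.39 and -2.02 ± 0.24 (highest adjusted p 6.66e-06), Id3 by -2.73 without no-tumor library 3.

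Lipid genes changed in both directions. Apoe (ENSMUSG00000002985, chromosome 7, 19696109 to 19699188), the apolipoprotein that carries cholesterol out of macrophages, stood at 2293, 2173 and 2005 against 10629, 16341 and 20444 CPM, 7.33-fold lower with the tumor and with no overlap (-2.87 ± 0.30, adjusted p = 2.28e-06). Lpl, the lipase that frees fatty acids from lipoproteins, fell from 587, 667 and 859.7 to 199, 155 and 148 CPM (-2.08 ± 0.18, adjusted p = 3.73e-07). Trem2, a lipid receptor gene of tumor and tissue macrophages, rose from 32.3, 42.5 and 37.4 to 142, 153 and 113 CPM (1.86 ± 0.24, adjusted p = 1.49e-05). The cholesterol exporter gene Abcg1 (1.49 ± 0.23) and the galectin gene Lgals3 (1.02 ± 0.11) rose too (highest adjusted p 6.44e-05). Of 20 tested genes of lipid handling 11 rose and 7 fell. Cholesterol synthesis gave 4 higher and 6 lower of 23, a share of 43.5% called against 49.8% of all tested genes. The sterol-regulated gene Insig1 fell (-0.64 ± 0.09, adjusted p = 3.39e-05), and the number that fell was 3 without tumor library 1 or no-tumor library 3.

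Lysosomal genes rose in most cases, 23 higher and 4 lower of 36 with a median of 0.66. Ctsl, a cysteine protease gene, had the smallest p of these genes, at 617, 659 and 669 against 129, 126 and 129 CPM (2.34 ± 0.09, adjusted p = 3.7e-10), and all 6 values lay close to their group means. Ctsd, an aspartic protease gene, stood at 5530.4, 5186 and 6821 against 2099, 1926 and 1916 CPM (1.56 ± 0.13, adjusted p = 1.92e-07).

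Receptors for dying cells did not move together: 10 of 23 tested genes of phosphatidylserine binding and efferocytosis rose and 7 fell, and the median was 0.01. Stab1, a scavenger receptor gene that also binds phosphatidylserine, rose from 91.9, 46.5 and 39 to 541, 574 and 383 CPM (3.08 ± 0.39, adjusted p = 1.32e-05, and 3.72 without tumor library 3 and no-tumor library 1). Cd300lf, a receptor gene of the same function, rose by 3.34 ± 0.30 and the integrin gene Itgb5 by 4.04 ± 0.49 (highest adjusted p 8.04e-06), Itgb5 by 4.97 without no-tumor library 1. Axl, a receptor kinase gene for bridged phosphatidylserine, fell by -0.42 ± 0.14 (adjusted p = 0.0202), a call lost without tumor library 3 or no-tumor library 3 (adjusted p = 0.0925 and 0.104), and Mertk, its relative, did not pass (0.014 ± 0.15, adjusted p = 0.946).

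Of 18 tested complement genes 6 rose and 3 fell, and the other 9 were not called, a called share near the 49.8% of all genes. The anaphylatoxin receptor genes C5ar1 and C3ar1 rose by 1.17 ± 0.14 and 0.96 ± 0.15 (highest adjusted p 6.51e-05). Cfp, which encodes properdin and stabilizes the alternative pathway, fell from 2039, 2061 and 2283 to 995, 855 and 1159 CPM (-1.09 ± 0.17, adjusted p = 6.92e-05). The abundant C1q chain genes did not pass, with C1qa at 1909, 1782 and 2017 against 1664, 1980.3 and 1836 CPM (adjusted p = 0.616). The number that rose was 10 without no-tumor library 2, and the number that fell was 1 without tumor library 1 or 2.

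Targets of NRF2, the factor of the oxidative stress response, rose in 12 of 15 cases and fell in 0, with a median of 1.18. Gsr, which regenerates glutathione, rose by 1.90 ± 0.17 (adjusted p = 5.46e-07) and Gclm, a subunit of its synthesis, by 1.18 ± 0.08 (adjusted p = 2.32e-08). Pgd, of the pentose phosphate pathway, stood at 585, 627 and 586 against 244, 235 and 258 CPM (adjusted p = 3.39e-08). The ferritin chain genes Ftl1 and Fth1, which store iron, rose by 1.00 ± 0.10 and 0.94 ± 0.13 (highest adjusted p 2.51e-05), and Tfrc, the receptor for iron uptake, fell from 21.2, 32.8 and 36.4 to 9.35, 8.54 and 9.43 CPM (-1.73 ± 0.31, adjusted p = 0.000276). In all 4 of 12 iron genes rose and 1 fell, a share of 41.7% called against 49.8% of all tested genes.

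Genes of DNA replication and mitosis rose in 25 of 38 cases and fell in 0. A log2 fold change over 1 was reached by 11 of them. Among genes of replication, Cdc45, part of the helicase, rose by 1.17 ± 0.17, Pcna, the clamp of the polymerase, by 0.57 ± 0.08 and the helicase subunit gene Mcm4 by 0.69 ± 0.11 (highest adjusted p 0.000109). The proliferation marker Mki67 did not pass, at 148, 149 and 109.8 against 108, 80.9 and 79.3 CPM (adjusted p = 0.117), and passed with the model fitted to the 6 compared libraries (adjusted p = 0.0206).

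Stress genes fell into 2 sets. Among 15 genes of the unfolded protein and integrated stress responses 10 rose, such as the chaperone gene Hspa5 (0.78 ± 0.12, adjusted p = 7.13e-05), and 3 fell, among them Atf4 (-0.99 ± 0.15, adjusted p = 5.29e-05). The inducible heat shock genes Hspa1a and Hspa1b stood far lower with the tumor. Hspa1a was at 54.6, 72.7 and 54.7 against 363, 1003 and 1192 CPM (-3.81 ± 0.45, adjusted p = 5.91e-06) and Hspa1b at 55.7, 75.2 and 61.8 against 488, 1293 and 1369.8 CPM (-4.03 ± 0.42, adjusted p = 2.08e-06). The 2 genes are near-identical copies, so the split of reads between them is uncertain. Hsp90aa1, another heat shock chaperone gene, rose by 0.96 ± 0.09 (adjusted p = 5.05e-07). Heat shock and immediate-early transcripts are known to respond to how cells are handled before lysis, and the part of handling in these values was not tested. The immediate-early genes Fos, Jun and Egr1 did not pass, Fos being called higher without no-tumor library 3 (1.05, adjusted p = 0.0181). Of 25 genes in this list 3 rose and 5 fell, a share of 32.0% called against 49.8% of all tested genes. Without no-tumor library 3 the counts were 6 and 2. Egr3 fell by -2.45 ± 0.63 (adjusted p = 0.0045), with 4.05, 6.76 and 37.3 CPM in no-tumor libraries 1 to 3. Without no-tumor library 3 it was at -0.87 (adjusted p = 0.0839).

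Several of the largest decreases lay outside these programs. St8sia6, an enzyme gene that adds sialic acid to glycans, stood at 1.55, 1.35 and 1.66 CPM with the tumor and at 164, 149 and 171 CPM without it, 106-fold lower (-6.72 ± 0.25, adjusted p = 3.7e-10). The 3 values of each group lay close together. Lama3, a laminin chain gene, fell from 25.5, 15.2 and 15.7 to 0.539, 0.378 and 0.352 CPM (-5.46 ± 0.28, adjusted p = 2.41e-09). Dnah12, a dynein heavy chain gene, fell from 19.1, 24.3 and 18.4 to 0.666, 0.378 and 0.416 CPM (-5.39 ± 0.34), and Abca6, a lipid transporter gene, from 11.8, 9.52 and 10.8 to 0.381, 0.189 and 0.0959 CPM (-5.56 ± 0.37, and -6.18 without tumor library 1; highest adjusted p 2.53e-08). Diras2, a small GTPase gene, fell by -6.46 ± 0.67 (adjusted p = 1.91e-06), or -5.57 without no-tumor library 1. Cd209f, of the lectin cluster, was at 8.34, 24.2 and 23.9 CPM without the tumor and at 0, 0.0315 and 0.032 CPM with it, too few reads for a fold.

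Among the largest increases, AA467197 rose from 4.57, 0.783 and 0.193 to 186, 275 and 200.1 CPM (6.96 ± 0.66, adjusted p = 8.03e-07). The glycoprotein gene Pdpn, podoplanin, rose from 0.244, 0 and 0.0827 to 8.4, 14.1 and 8.19 CPM (6.56 ± 0.60, adjusted p = 5.62e-07), and the leptin receptor gene Lepr from 0.593, 0.0313 and 0.0827 to 21, 11.4 and 45.5 CPM (6.87 ± 0.89, adjusted p = 1.59e-05). Without no-tumor library 1 the log2 fold changes were 8.86, 7.75 and 8.70, and that of Lepr was 6.19 without tumor library 3. Cdh1, which encodes E-cadherin, found on epithelium and on macrophages treated with interleukin-4, rose from 0.488, 0.313 and 0.0551 to 14.6, 22.5 and 14.8 CPM (5.97 ± 0.42, adjusted p = 4.13e-08, and 6.59 without no-tumor library 1).

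Macrophage markers were abundant in all 6 libraries, while markers of other cells were present at lower levels and differed between the groups. The summed level of 10 macrophage markers was 18400 to 19600 CPM with the tumor and 27200 to 30500 CPM without it, and the lysozyme gene Lyz2 fell (-1.25 ± 0.17, adjusted p = 2.45e-05). Of the 10 markers 4 rose (Fcgr1, Cd68, Itgam and Spi1) and only Lyz2 fell, with a median of 0.26. The lower sum was thus not shared by most of them. The Fc receptor gene Fcgr1 rose 15.3-fold, from 29.2, 32.7 and 11.2 to 337, 405 and 375 CPM (3.94 ± 0.33, adjusted p = 2.21e-07). All 13 B cell markers fell. Their sum was 19.6, 19.8 and 87.8 CPM with the tumor and 1880, 196 and 258 CPM without it, highest in no-tumor library 1. The kinase gene Blk stood at 0.444, 0.284 and 1.09 against 55.1, 3.98 and 6.84 CPM (-5.17 ± 1.04, adjusted p = 0.000702), and without no-tumor library 1 it was at -3.14. All 13 remained lower when tumor library 3 and no-tumor library 1 were both left out. Cxcr5, Fcmr and Cacna1e, among the largest decreases, were likewise highest in no-tumor library 1. Their log2 fold changes were -4.80, -4.91 and -5.21 with all libraries, and -2.33, -3.15 and -3.38 without no-tumor library 1. Without tumor library 3 they were -5.95, -6.79 and -6.33.

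T and NK cell markers stood at a sum of 34.8 to 205 CPM with the tumor, highest in tumor library 3, and 52.2 to 127 CPM without it. Of 17 genes 13 rose, 8 without the 2 libraries that stood apart, and Cd2 fell (-3.32 ± 0.66, adjusted p = 0.000698, and -3.96 without tumor library 3). Cd2 stood at 5.04, 4.35 and 12.5 against 106, 44.8 and 67.7 CPM. It made up most of the no-tumor sums of 127, 52.2 and 72.2 CPM, so the sums hide the rise of most members. The cytotoxic granule gene Gzmb was at 5.52, 4.76 and 25.5 against 0.174, 0.0313 and 0.0276 CPM (7.27 ± 1.19, adjusted p = 0.000124), or 6.06 without tumor library 3 and 8.48 without no-tumor library 1. Neutrophil markers summed to 87.3 to 384 CPM with the tumor and 113 to 125 CPM without it, with S100a9 at 12.7, 25.5 and 118 against 1.05, 0.188 and 0.193 CPM (6.84 ± 1.12, adjusted p = 0.000131, with 5.39 without tumor library 3 and 8.07 without no-tumor library 1). All 10 tested markers of mesothelial cells and fibroblasts rose, from sums of 0.276 to 0.837 CPM to sums of 22.7 to 77.9 CPM, with the collagen gene Col3a1 at 6.03, 10.3 and 20.3 CPM and at most 0.157 CPM without the tumor. Mast cell markers summed to 148 CPM in no-tumor library 1, against 12.8 and 8.88 CPM in the other 2 libraries of its group and 27.2 to 79.5 CPM with the tumor. The 4 called decreases among them became 0 without tumor library 3 and no-tumor library 1. The tumor sums were mostly Hdc, at 33.5, 26.3 and 75.4 against 16.9, 9.24 and 3.42 CPM. Cma1 and Cpa3 were under 1 CPM in every tumor library. Hdc averaged 141 CPM with the tumor and 53.5 CPM without it in Tim-4high cells, so its level need not mark mast cells. Of 14 dendritic cell markers 5 rose and 4 fell, and of 15 monocyte markers 10 rose and 1 fell. Epithelial markers, which would also mark carcinoma cells, gave 1 higher (Cdh1) and 2 lower (Krt7 and Lgals4, the call of the latter lost without tumor library 2 or no-tumor library 1) of 6, with Epcam at 0.0951, 0.063 and 0.224 against 2.51, 0.219 and 0.11 CPM, called lower only without no-tumor library 2 or 3 (adjusted p = 0.0423 and 0.0297). Of that list Cldn7 and Vil1 were too low to test, and Krt20, Cldn4, Cdx2 and Esrp1 were not analysed here. The part of these cells in the results above was not tested. Without tumor library 3 and no-tumor library 1, the log2 fold changes were 7.08 for Arg1, 5.01 for Vegfa, 3.26 for Cd274, -4.57 for Retnla and -3.03 for Apoe, all 5 still called.

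**Figure D4:**
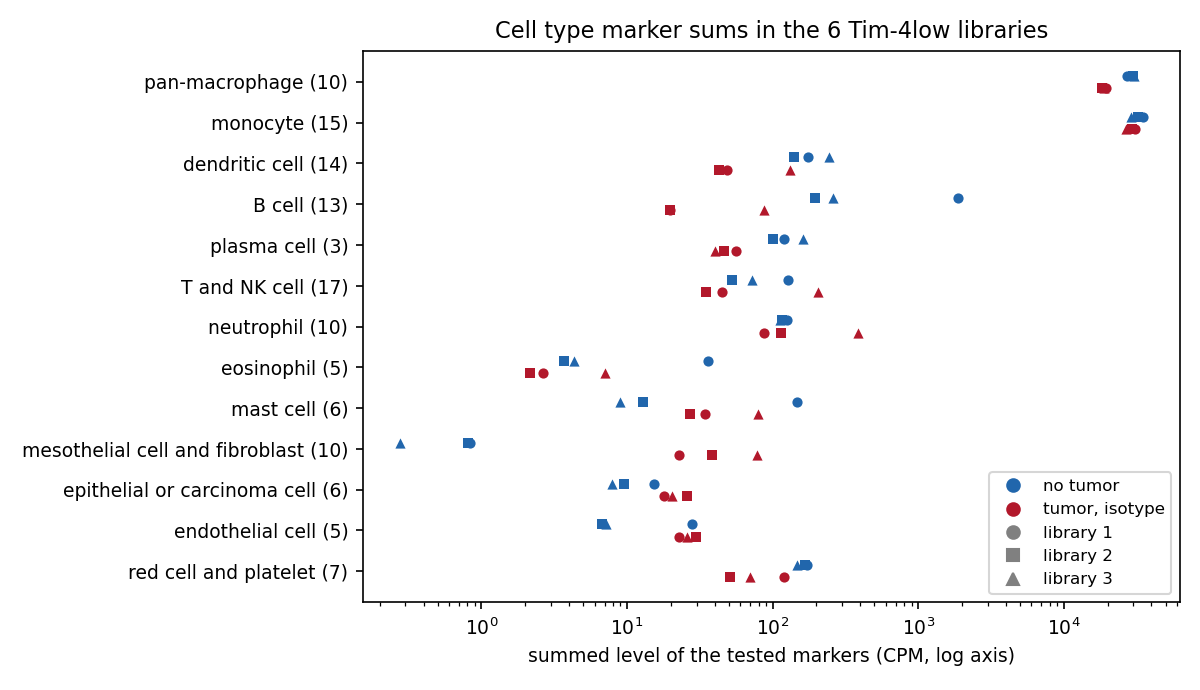
Summed level of the tested markers of each cell type, in CPM on a log axis, in the 6 Tim-4low libraries (red for tumor, blue for no tumor, with the number of markers in brackets). B cell markers reach 1880 CPM in no-tumor library 1, and neutrophil markers 384 CPM in tumor library 3.

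The same comparison was made in Tim-4high macrophages, and the difference between both changes was tested as an interaction, in libraries not shared between the populations. Of the 16609 genes 8548 (51.5%) were called in Tim-4high cells. For 587 genes (3.53%) the change differed between the populations, for 220 upwards in Tim-4low cells (1.32%) and for 367 downwards (2.21%). Libraries of the same number within a condition deviated together, and with a block on that pairing the count was 1858, which held 585 of the 587. The difference for Arg1 (0.79 ± 0.49, adjusted p = 0.478), Vegfa (-0.21 ± 0.30, adjusted p = 0.803) and Cd274 (0.50 ± 0.86, adjusted p = 0.84) did not pass, which does not show that they changed alike. Without no-tumor Tim-4low library 1 the Arg1 difference was called (1.64, adjusted p = 0.0021), as it was without tumor library 3 as well (1.66, adjusted p = 0.00461).

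Genes with a higher log2 fold change in Tim-4low cells include receptors. Stab1 changed by 3.08 in Tim-4low and 0.23 in Tim-4high cells (difference 2.84 ± 0.52, adjusted p = 0.0071). Irf8 rose in Tim-4low cells while its value in Tim-4high cells was 0.046 (difference 1.79 ± 0.34, adjusted p = 0.00791). Fcgr1, the high-affinity receptor for IgG, differed by 2.10 ± 0.42, the organic anion pump gene Abcc3 by 2.11 ± 0.39, and the matrix gene Spon1 by 2.87 ± 0.56 (adjusted p = 0.0112, 0.00735 and 0.0101). Cped1 differed by 2.23 ± 0.34 (adjusted p = 0.00186). Hgf, the hepatocyte growth factor gene, did not pass in Tim-4low cells (0.16 ± 0.44, adjusted p = 0.776) and fell in Tim-4high cells (-3.23 ± 0.47, adjusted p = 4.21e-05), a difference of 3.39 ± 0.64 (adjusted p = 0.00798). Apoe fell less in Tim-4low cells, by -2.87 against -4.42 (difference 1.54 ± 0.40, adjusted p = 0.0467).

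Genes with a lower log2 fold change in Tim-4low cells include lectins and MHC class II genes. Mgl2 fell in Tim-4low cells and stood at 2.50 ± 0.51 in Tim-4high cells (adjusted p = 0.000747), a difference of -4.28 ± 0.69 (adjusted p = 0.00317). H2-Eb1 stood at -0.41 in Tim-4low and at 2.31 ± 0.43 in Tim-4high cells (adjusted p = 0.000361, difference -2.72 ± 0.59, adjusted p = 0.0184). Cd74 differed by -2.44 ± 0.59 (adjusted p = 0.0335). Over the class II list 6 of 14 genes differed downwards and 1 upwards, and over the small or recruited macrophage list 7 of 20 differed downwards and 0 upwards. Vdr, the vitamin D receptor gene, rose in both populations, by 2.23 in Tim-4low and 5.89 in Tim-4high cells (difference -3.67 ± 0.48, adjusted p = 0.000819). Synpo, an actin-binding protein gene, did not pass in Tim-4low cells (-0.22 ± 0.25) and rose in Tim-4high cells by 3.75 ± 0.31 (difference -3.96 ± 0.40, adjusted p = 0.000137). Ndnf and Ramp1, which encodes a subunit of the receptor for the neuropeptide CGRP, fell in Tim-4low cells by -4.28 ± 0.47 and -3.08 ± 0.43 and differed by -4.11 ± 0.73 and -3.72 ± 0.72 (adjusted p = 0.00541 and 0.00931). Of the 28 called differences described here 16 were called in every omission of 1 library, and 12 were not, among them Apoe, Cd74 and H2-Eb1 (adjusted p up to 0.158). Without no-tumor Tim-4high library 1 the differences were -4.92 for Mgl2, -5.00 for Ndnf, -4.45 for Ramp1 and -4.30 for Vdr. Without no-tumor Tim-4high library 2 they were -3.75 for H2-Eb1 and -3.55 for Cd74. Without tumor Tim-4high library 3 they were 3.72 for Spon1, -3.52 for Ndnf and -2.91 for Ramp1, whose call was lost (adjusted p = 0.0585). Without no-tumor Tim-4low library 1 the Hgf difference was 4.16, and without tumor library 3 as well that of Stab1 was 3.49.

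**Figure D5:**
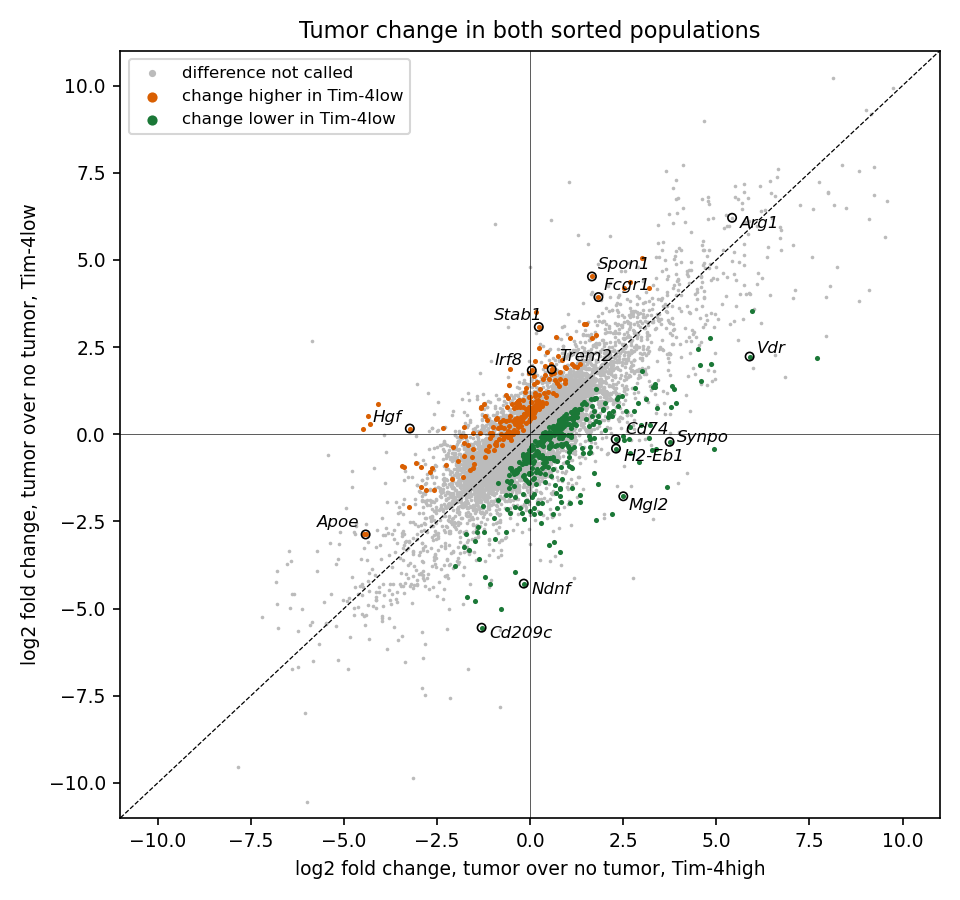
Log2 fold change of tumor over no tumor in Tim-4high (x axis) and Tim-4low cells (y axis), 1 point a tested gene, with the 587 genes whose changes differ by the interaction test in colour and the dashed line marking equal change. Stab1 lies above the line and Mgl2 and H2-Eb1 below it.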

How the data were processed

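RNA was measured in macrophages sorted from the mouse peritoneal cavity. The authors deposited estimated counts per gene, not normalized, and per the submitters' processing notes STAR, DESeq2 and the build mm10 were used. Versions, the quantifier, its settings and its use of strand: not given in the sources used here. Of each library's values, 62.8% to 66.8% were whole to within 0.001. All 23511 symbols matched GENCODE M21, and 23491 genes ended 1 base past the annotated end, which was removed.

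Estimated counts were rounded. The filter filterByExpr kept 16609 genes and dropped 6902, which held no more than 0.0878% of any library. A quasi-likelihood model was fitted in edgeR 4.0.16 (R 4.3.3) to 6 groups of 3 libraries with TMM factors (12 residual degrees of freedom, common dispersion 0.0323). Tumor was tested against no tumor within each population, and the interaction between both. Members and lists were chosen with earlier results of these data known, and lists were not tested as sets.

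The naming rule took Timd4, the 12 largest called changes each way whose libraries did not overlap and whose higher group averaged 10 CPM or more (predicted models and antigen receptor segments left out), up to 6 members of each list by smallest p, the key genes, and the 6 largest differences between populations each way. It took 255 genes, some of which are not reported here. Adm, Axl, C1qa, Ccl2, Ccl7, Cd80, Cd86, Chil4, Ddit4, Egln3, Egr1, Fn1, Fos, Ifit1, Jun, Kdm3a, Mertk, Mki67, Mmp9, Mx1, Ndufa4, Slc16a3, Slc2a1, Slc7a1, Sms, Tnf, Tnfsf9, Usp18 and Vsir were named after their values were seen, as were the 5 promoters shown.

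Replicates were checked by pairs: log2 CPM correlated at 0.9749 to 0.9912 and counts differed beyond sampling noise (chi-square per degree of freedom 11.17 to 55.56). Library numbers were checked on deviations from group means. Within a condition, the correlation between populations was 0.217 to 0.489 for equal numbers and -0.432 to 0.209 for unequal ones, so numbers pair libraries there. Between tumor and no-tumor Tim-4low libraries the same number gave -0.294 to 0.118, so they do not pair across that comparison. The labels do not say what a number marks.

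On simulated data for the Tim-4low comparison over 16609 genes, 76.3% of 97 genes changed 2-fold and 100% of 103 changed 4-fold were recovered. For the interaction the shares were 56.7% and 93.2%. The simulation changed only these genes, drawn from those with many counts, and left 16409 alike in all groups. In the data 49.8% of genes were called and some described genes have few reads, so these shares do not give the recovery there. Alternatives were RLE factors, no filter, robust estimation, DESeq2 1.42.0, a replicate block, the compared groups alone and leaving out libraries. Pairing within a condition was added as a block after seeing the data. Counts of near-identical copies, overlapping and antisense genes are uncertain.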

Additional observations from a re-analysis of the deposited data

Results flagged for a closer look

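The tumor change was compared between both populations by edgeR's interaction test. It differed for 28 of the genes described here, in log2 units of the Tim-4low change minus the Tim-4high change. This difference was positive for 16 genes and negative for 12, with adjusted p up to 0.0479. A positive sign means a higher log2 fold change in Tim-4low cells, also where a gene fell less there. A negative sign means a lower one, also where a gene fell more there. All 28 were called with a block on the pairing of libraries within a condition (adjusted p up to 0.00939), with RLE factors and with DESeq2. Calls were lost for 10 genes in the compared groups alone, 6 with robust estimation, 3 with no filter, and 2 (Mmp14 and Vcan) with a block on library number. With 1 library left out, 3 to 10 were lost.

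Among the positive differences, Hgf by 3.39, Spon1 by 2.87, Stab1 by 2.84, Cped1 by 2.23, Abcc3 by 2.11, Fcgr1 by 2.10, Vcan by 2.05 and Irf8 by 1.79 differed most. The rest were Mmp14 by 1.70, Apoe by 1.54, Trem2 by 1.28, C3ar1 by 1.27, Lpl by 1.17, Lgmn by 1.12, Gsr by 0.95 and C5ar1 by 0.79. Hgf was at 0.16 in Tim-4low cells, not called, and at -3.23 in Tim-4high cells. Lpl was at -2.08 and -3.24, and Apoe at -2.87 and -4.42.

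Among the negative differences, Mgl2 by -4.28, Ndnf by -4.11, Synpo by -3.96, Ramp1 by -3.72, Vdr by -3.67 and Cd209a by -2.96 differed most. The rest were H2-Eb1 by -2.72, Cd74 by -2.44, Axl by -1.52, Ccl6 by -1.31, Irf4 by -1.16 and Lgals3 by -0.69. Ccl6 and Lgals3 rose in both populations and rose less in Tim-4low cells, Ccl6 by 1.02 against 2.34. Cd209a and Irf4 fell in both and fell more in Tim-4low cells, Irf4 by -2.87 against -1.71. Dixon's rule for a library far from the others was not applied to these groups of 3.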

How the results depend on the processing

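With 3 libraries a group, precision rests on the spread between libraries, and genes under about 1 CPM carry few reads. The 8273 genes called in Tim-4low cells were 8286 with RLE factors, 8195 with no filter, 8251 with robust estimation, 8342 with DESeq2, 8368 with a replicate block on library number (which also called Mki67 and Tnf, adjusted p = 0.0366 and 0.0458), 7507 in the compared groups alone and 7014 to 7543 with 1 library left out. Without tumor library 3 and no-tumor library 1 the count was 6884, of which 6580 were shared with the same sign. Of 144 called genes described here 134 were called in every omission of 1 library, and none of the 144 turned its sign in any alternative run. Without no-tumor library 1, Timd4 was at 1.86 (adjusted p = 0.0254) and Cx3cr1 at 1.34 (adjusted p = 0.0215), against -0.33 and -0.23, neither called, with all libraries. With 1 library left out, Timd4 lay between -1.73 and 1.86 and Cx3cr1 between -0.64 and 1.34. Cx3cr1 was at 1.37 (adjusted p = 0.0359) without tumor library 3 as well.

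The interaction count of 587 was 651 with a replicate block on library number, 400 in the compared groups alone, 479 with no filter and 1028 with DESeq2. It was 1858 with pairing within a condition as the block, a fit added after seeing the data. With 1 library left out it lay between 328 and 952. It fell to 365, 335 and 328 without tumor Tim-4low library 1 or 2 or no-tumor Tim-4low library 3, and to 389, 338 and 376 without tumor Tim-4high library 1 or 3 or no-tumor Tim-4high library 3. It rose to 952 without no-tumor Tim-4high library 1, and was 555 without tumor library 3 and no-tumor library 1 of Tim-4low cells, an omission not run for the Tim-4high count. The cause was not tested. The count for Tim-4high cells, 8548, was 7418 to 8668 in the alternatives.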
